A study of Mus musculus with 12 samples.

Results

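Ion channel genes of mouse sensory neurons were taken by symbol from a table of RNA counts. A gene belonged to the set where its symbol starts with Cacn, Kcn, Asic, P2rx, Piezo, Hcn or Clcn, with Scn or Ano followed by a digit, or with Trpa, Trpc, Trpm or Trpv followed by a digit. Of 9073 genes in the table, 52 met this rule, and no measured value entered it. The mouse symbol table holds 200 symbols of this form, and the 148 others were not analysed here. The table lists genes with at least 1 count in every column, so a channel with few transcripts is less likely to be in it. Of the 52, 51 encode pores or auxiliary subunits of channels and related transporters, and 1, Trpc4ap, encodes a protein that associates with a TRP channel and is no channel subunit.

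The 12 samples came from adult dorsal root ganglion (DRG) neurons of mice with the genotype RPL22HA+/+;Advillin-Cre+. In these mice, Cre recombinase driven by Advillin, a gene of peripheral sensory neurons, turns on an allele of the ribosomal protein gene Rpl22 with a haemagglutinin tag (HA). RNA that came down with an anti-HA antibody is called IP, and lysate RNA before that step is called Input. Each was taken after treatment with AAV-control or AAV-shGpr151. AAV stands for adeno-associated virus, and the label of the second names a short hairpin and the orphan receptor gene Gpr151. This gives 4 groups with 3 samples each: control Input, control IP, shGpr151 Input and shGpr151 IP. Every group carries the same tag and Cre. By the series design, the sciatic nerve was injured beforehand and the neurons were then cultured, but by the extraction protocol the ganglia were lysed fresh. No uninjured group was analysed here. The labels give neither the number of animals per sample nor the age beyond adult.

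The 3 columns of a group were nearly alike. Chi-square per degree of freedom was 0.98 to 1.05 for the 12 pairs from the same group and 1.8 to 156 for the 54 pairs from different groups. Columns of a group thus differed by about the counting noise, and each group was counted as 1 library with the 3 columns summed. No difference here has a replicate check between animals or cultures. Columns held 1094523 to 2111544 counts. The median ion channel gene had 69.5 summed counts in IP control, 62.0 in IP shGpr151, 20 in Input control and 15.5 in Input shGpr151. The Input sum was under 20 counts for 25 of the 52 genes in control and for 33 with shGpr151. Log2 ratios below are of summed counts on library sizes scaled by the trimmed mean of M values, TMM. The ranges in parentheses are 95% intervals that cover counting error only. The word called marks genes that passed an adjusted threshold of 0.05 over 8312 tested genes in edgeR's quasi-likelihood test, fitted to the 12 columns. Such a call compares these libraries and not the conditions. Of the 52 genes, 49 were tested. The others, Kcnc4 and Kcnk5 among them, fell under the filter on low counts. The target Gpr151 had 107, 109 and 98 counts in IP control, 96, 65 and 89 in IP shGpr151, 10, 8 and 6 in Input control and 4, 4 and 5 in Input shGpr151. Its log2 ratio was -0.002 (-0.25 to 0.24) in IP and -0.86 (-1.96 to 0.17) in Input, neither called, so the libraries are named by their labels.

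Ion channels set the resting potential, the threshold and the shape of the action potential of a sensory neuron, and they turn heat, acid, touch and tissue damage into current. Sodium channels carry the upstroke, potassium channels repolarise the membrane, calcium channels couple spikes to transmitter release, and HCN channels carry a current that opens on hyperpolarisation. TRP, ASIC, P2X and Piezo channels are sensors of chemical, acid, ATP and mechanical stimuli. Many of these genes are also active in other cells of the ganglion, such as macrophages and the glia around the neurons.

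IP against Input describes which channel transcripts were enriched with the tagged ribosomes of sensory neurons. The transcripts of the pain-related sodium channel gene Scn9a, the acid sensor Asic3, the touch channel Piezo2, the BK channel gene Kcnma1 and the endosomal exchanger gene Clcn3 were over 4-fold higher in IP than in Input, with either virus. Those of Trpm2, Ano8, the ATP receptor genes P2rx4 and P2rx7 and the scramblase gene Ano6 were lower on TMM sizes. In control, 19 of 49 tested channel genes were called higher (38.8%, against 32.5% of all tested genes) and 8 were called lower (16.3%, against 32.8%). With shGpr151, 22 were called higher (44.9%, against 33.6%) and 7 lower (14.3%, against 33.0%). The median log2 ratio of the 52 genes was 0.30 in control and 0.72 with shGpr151, beside -0.060 and -0.010 over all genes. Over the 21 channel genes with a mean of at least 20 counts per column it was 0.92 and 0.94. That mean covers IP and Input columns, so genes high in IP pass it more easily. The gene-by-gene difference, shGpr151 minus control, had a median of 0.225 over these 21 genes and of 0.26 over the 52. By size, 15 of the 52 were more than 2-fold higher with an interval off 0 in control (21.2% of all genes) and 10 more than 2-fold lower (26.2%). With shGpr151 these counts were 18 (23.5%) and 7 (27.1%). Of the called genes, 16 were higher in both treatments and 7 were lower in both, and 0 were called in opposite directions. Which genes count as higher depends on the scale, because TMM sizes move every ratio by -2.17 in control and by -2.19 with shGpr151 relative to total counts. On total counts, 44 channel genes were called higher in control (all tested genes, 83.8%) and 2 lower (11.1%). With shGpr151 these counts were 45 (82.3%) and 2 (11.7%). The 2 lower genes were Trpm2 and Ano8 in both treatments. In lysates and pulldowns of whole ganglia or cultures, fewer cells of a type and less RNA per cell cannot be told apart.

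**Figure D1:**
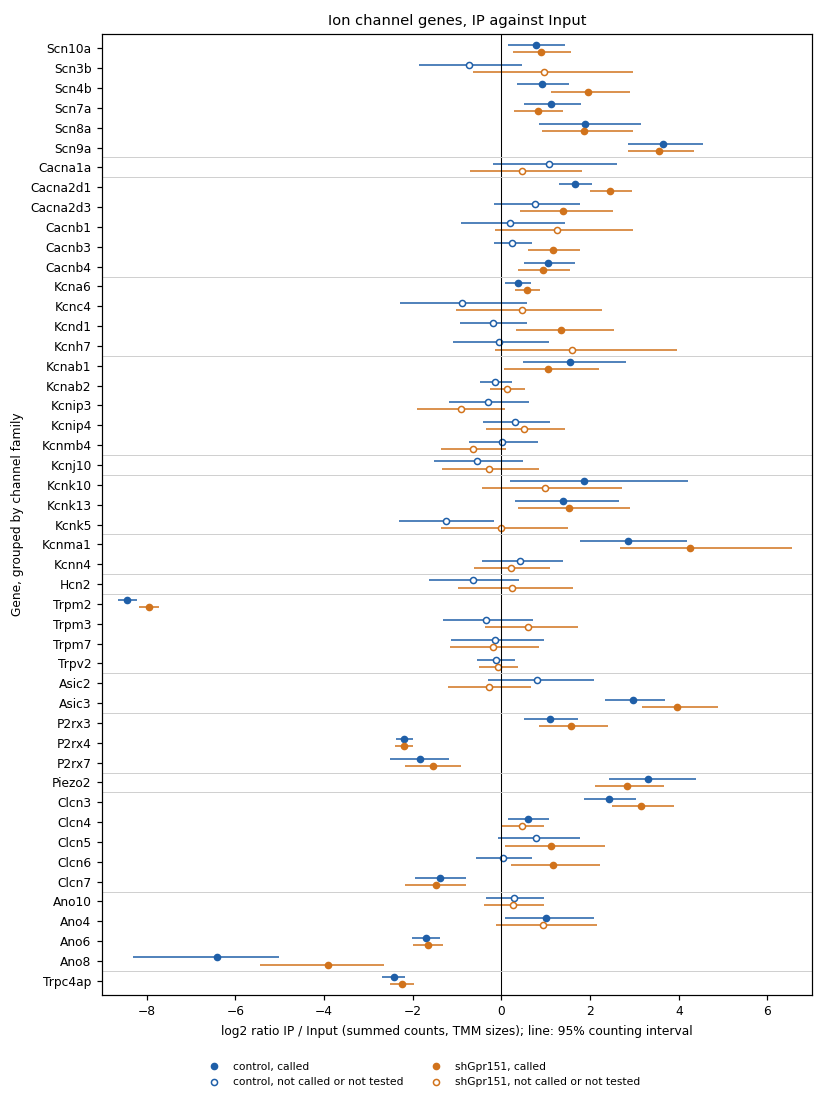
The log2 ratio of IP over Input is drawn for ion channel genes, grouped by channel family, for control (blue) and shGpr151 (orange), with lines for the 95% counting interval and filled points for called genes. Scn9a, Asic3, Piezo2, Kcna6 and Clcn3 lie to the right of 0 in both treatments, and Trpm2 lies farthest to the left, at -8.43 and -7.94.

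Markers of cell types moved with this comparison. Of 18 neuron markers, 16 were higher in IP in control and 1 lower, with a median of 1.83, and their summed level went from 2060 CPM (counts scaled to the library total) in Input, with columns from 2050 to 2070 CPM, to 23600 CPM in IP. With shGpr151, 17 were higher and 0 lower, with a median of 1.86. Of 11 macrophage markers, 9 were lower and 1 higher in control, with a median of -1.50. Their summed level was 466 CPM (459 to 480) in Input and 542 CPM (528 to 560) in IP. The calls and medians are on TMM sizes and the CPM levels on total counts. TMM sizes move each control ratio by -2.17 relative to total counts. On total counts the summed macrophage level was thus higher in IP, and on TMM sizes most of these markers were lower. Schwann cell markers split into 3 higher and 5 lower of 9, satellite glia markers into 2 and 2 of 6, fibroblast markers into 3 and 3 of 7 and endothelial and mural markers into 1 and 3 of 6. None of the 6 erythroid markers were in the table.

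Among sodium channels, Scn9a encodes Nav1.7, whose loss abolishes pain in people. Scn9a had 173, 166 and 149 counts with the control virus and 143, 192 and 153 with shGpr151 in IP, but 5, 5 and 3 in Input control and 4, 5 and 8 in Input shGpr151. Every IP column was thus far above every Input column. In log2 terms, IP over Input was 3.63 (2.85 to 4.55) in control and 3.55 (2.86 to 4.34) with shGpr151. Scn8a, which encodes the nodal channel Nav1.6, had 1.90 (0.86 to 3.15) in control and 1.86 (0.92 to 2.97) with shGpr151. Scn10a encodes the tetrodotoxin-resistant channel Nav1.8 of nociceptors and was less enriched in control, at 0.77 (0.16 to 1.44), an interval that does not overlap that of Scn9a. Scn7a, which encodes the atypical sodium channel Nax, had 1.13 (0.51 to 1.80). In all, 5 of 7 sodium channel genes were called higher in each treatment (71.4%). Among all tested genes these shares were 32.5% in control and 33.6% with shGpr151. In control 1 of the 7 was called lower, and with shGpr151 0 were.

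The auxiliary beta subunit genes of sodium channels were measured beside the pores. Scn4b was called higher in both treatments, at 0.92 (0.36 to 1.53) in control and 1.95 (1.12 to 2.90) with shGpr151. Scn3b rested on 11 and 4 Input counts and was not called.

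Calcium channel genes were led by auxiliary subunits. Cacna2d1 encodes alpha2delta-1, the binding site of gabapentin, and traffics calcium channels to the membrane. It had 209, 235 and 200 counts in IP control, 178, 201 and 185 in IP shGpr151, 25, 20 and 22 in Input control and 10, 19 and 13 in Input shGpr151. IP and Input columns did not overlap in either treatment. IP over Input came to a log2 ratio of 1.67 (1.30 to 2.05) in control and 2.46 (2.00 to 2.95) with shGpr151. Cacnb4, a cytoplasmic beta subunit, was called higher in both treatments, at 1.06 (0.51 to 1.65) and 0.94 (0.37 to 1.54). Cacnb3, another beta subunit, was called higher with shGpr151 alone, at 1.17 (0.61 to 1.77), against 0.25 (-0.17 to 0.68) in control. The pore gene in the table was Cacna1a, the P/Q-type channel, with 6 and 8 Input counts and no call.

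Potassium channel genes were found on both sides of 0 as well. Kcnma1 encodes the large-conductance calcium-activated (BK) channel. In IP it had 56, 50 and 47 counts in control, and 48, 50 and 42 with shGpr151, but 3, 2 and 2 in Input control and 1 in each column of Input shGpr151. Its log2 ratio of IP over Input was 2.85 (1.78 to 4.19) in control and 4.25 (2.68 to 6.55) with shGpr151, and the second rests on 3 Input counts. Kcnn4, the intermediate-conductance calcium-activated channel, was not called in either treatment, at 0.43 (-0.43 to 1.39) and 0.21 (-0.62 to 1.10).

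Of 6 voltage-gated potassium pore genes, Kcna6, a Kv1 delayed rectifier, was called higher in both treatments. Its log2 ratios of IP over Input were 0.36 (0.08 to 0.66) in control and 0.59 (0.31 to 0.88) with shGpr151. Two-pore-domain channels hold the resting potential. Kcnk13 was called higher in both treatments, at 1.38 (0.32 to 2.65) and 1.52 (0.37 to 2.90), and Kcnk10 in control, at 1.86 (0.19 to 4.21) on 3 Input counts. Among the auxiliary genes, Kcnab1, a beta subunit of Kv1 channels, was called higher in both treatments, at 1.55 (0.50 to 2.82) and 1.06 (0.066 to 2.20). Kcnab2, another such beta subunit, and Kcnip4, a calcium-binding partner of Kv4 channels, were called in neither treatment. The ratios of Kcnab2 and Kcnip4 lay between -0.14 and 0.50. The glial inward rectifier gene Kcnj10, which is also 1 of the satellite glia markers, had -0.55 (-1.51 to 0.49) and -0.29 (-1.35 to 0.84), neither called.

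Of the HCN genes, Hcn2 was called in neither treatment, at -0.65 (-1.63 to 0.40) and 0.23 (-0.98 to 1.60). It held 14 and 8 Input counts.

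The sensory channels fell on both sides. Asic3, the acid-sensing channel subunit of muscle and visceral afferents, had 156, 158 and 185 counts in IP control, 170, 162 and 165 in IP shGpr151, 9, 5 and 7 in Input control and 3, 5 and 5 in Input shGpr151. Each IP column exceeded each Input column by far. The log2 ratio of IP over Input was 2.98 (2.35 to 3.68) in control and 3.97 (3.18 to 4.89) with shGpr151. Asic2 was called in neither treatment, at 0.80 (-0.31 to 2.10) and -0.29 (-1.20 to 0.67). Piezo2, the channel of light touch and proprioception, had 82, 127 and 92 counts in IP control, 88, 75 and 117 in IP shGpr151, 5, 3 and 2 in Input control and 4, 6 and 6 in Input shGpr151. Its ratios were 3.32 (2.42 to 4.39) and 2.84 (2.11 to 3.67). P2rx3, the ATP receptor subunit of nociceptors, was called higher, at 1.09 (0.50 to 1.73) and 1.58 (0.84 to 2.40).

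The other P2X genes went the other way on TMM sizes. P2rx4 and P2rx7 encode ATP receptors known from macrophages and microglia. P2rx4 had 143, 139 and 119 counts in IP control, 98, 116 and 95 in IP shGpr151, 208, 198 and 199 in Input control and 174, 204 and 203 in Input shGpr151. Its log2 ratio was -2.19 (-2.38 to -2.00) in control and -2.20 (-2.40 to -2.00) with shGpr151. P2rx7 had -1.85 (-2.52 to -1.18) and -1.54 (-2.17 to -0.92). On total counts the ratios in control were -0.016 for P2rx4 and 0.33 for P2rx7, so the direction of P2rx7 flips with the scale. Macrophage markers were lower on TMM sizes as given above, and their part in the P2X values was not tested. The span of P2rx4 overlaps that of Camkk2 in the RefSeq annotation of GRCm38.p6. The sources used here do not give how reads of overlapping genes were divided.

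Trpm2 stood apart from the other channel genes. It encodes a calcium-permeable channel gated by ADP-ribose and known from immune cells and from neurons that sense warmth. Its columns held 6769, 6429 and 6694 counts in Input control and 5343, 5324 and 5332 in Input shGpr151, but in IP 64, 49 and 61 in control and 55, 57 and 47 with shGpr151. It alone took 89.1% of the counts assigned to the 52 genes in Input control and 2.35% of them in IP control. The log2 ratio of IP over Input was -8.43 (-8.66 to -8.22) in control and -7.94 (-8.18 to -7.72) with shGpr151. From the lowest ratio upward, Trpm2 ranked 15 of all 9073 genes in control and 13 with shGpr151. In CPM, 100 genes fell by more than 16-fold from Input to IP with either virus, and Trpm2 was the 1 channel gene among them. Without Trpm2, the 51 remaining genes took 0.0384% of the Input control library and 0.170% of the IP control library. The RefSeq annotation of GRCm38.p6 places 2 small nucleolar RNA genes and 1 long non-coding RNA gene, none of them in the count table, at positions that overlap the span of Trpm2. Whether the counts assigned to Trpm2 in Input came from its mRNA or from another feature in that span was not tested, and this holds for each Trpm2 value given here. The 3 other TRP genes were called in neither treatment. Trpv2, a channel of large sensory neurons and macrophages, had -0.12 (-0.55 to 0.32) and -0.071 (-0.50 to 0.38), and Trpm3 and Trpm7 lay between -0.34 and 0.61.

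**Figure D2:**
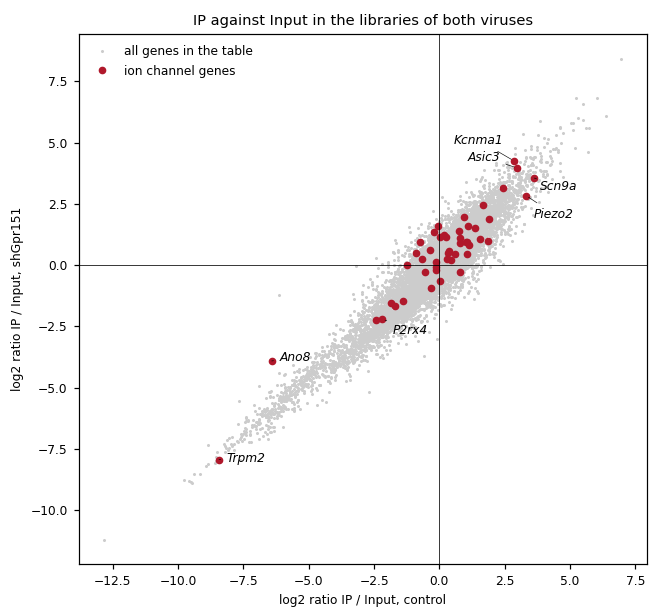
The log2 ratio of IP over Input in control (horizontal axis) is plotted against that with shGpr151 (vertical axis) for all 9073 genes (grey) and for ion channel genes (red). The channel genes follow the cloud of all genes, with Trpm2 at the low end, Kcnma1, Asic3, Scn9a and Piezo2 at the high end, and Ano8 above the diagonal.

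Chloride channels and anoctamins were mixed too. Clcn3 encodes an endosomal chloride-proton exchanger and was called higher, at 2.42 (1.86 to 3.04) in control and 3.15 (2.49 to 3.90) with shGpr151. Clcn4, its close relative, had 0.61 (0.16 to 1.08), called, and 0.47 (0.01 to 0.95), not called. Ano6, the calcium-activated phospholipid scramblase, was called lower, at -1.70 (-2.02 to -1.38) and -1.66 (-2.00 to -1.31), whereas on total counts it had 0.47 and 0.54. Ano10 was called in neither, at 0.28 (-0.35 to 0.95) and 0.26 (-0.40 to 0.96). Ano8, an anoctamin of contact sites between the endoplasmic reticulum and the plasma membrane, had 32, 44 and 37 counts in Input control and 10, 15 and 12 in Input shGpr151. Its IP columns held 2, 1 and 1 counts in control and 4, 1 and 1 with shGpr151. On the log2 scale, IP over Input came to -6.42 (-8.32 to -5.02) and -3.92 (-5.45 to -2.66). Its span overlaps that of Dda1, which had 332 and 67 counts in IP and Input control. Clcn7, a lysosomal exchanger, was called lower too, at -1.38 (-1.95 to -0.81) and -1.48 (-2.16 to -0.80), and on total counts it had 0.79 and 0.72. Trpc4ap, the gene of the set that encodes no channel subunit, was lower as well, at -2.43 (-2.69 to -2.17) and -2.24 (-2.52 to -1.97).

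The IP/Input ratios of the 2 treatments come from separate libraries. Across the 52 genes their Pearson r was 0.932 and Spearman's rho 0.805, as a description. Without Trpm2 and Ano8, left out after their values were seen, r was 0.879 over 50 genes. Across all genes r was 0.944. Points of both axes share low Input counts, and genes are not independent replicates.

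The comparison of both IP libraries asks which ribosome-bound channel transcripts differed with the hairpin. In IP shGpr151 the transcripts of Asic3, Scn9a and Kcna6 were called higher than in IP control, each by about the same amount, and 0 channel genes were called lower. These 3 of 49 tested genes make 6.12%. Among all tested genes 8.69% were called, 3.72% higher and 4.97% lower. The log2 ratio was 0.32 (0.14 to 0.50) for Asic3, 0.33 (0.14 to 0.51) for Scn9a and 0.31 (0.13 to 0.50) for Kcna6. The sums were 499 counts in IP control and 497 in IP shGpr151 for Asic3, 488 and 488 for Scn9a, and 494 and 489 for Kcna6. The raw counts were thus nearly equal, and the ratio comes from the smaller IP shGpr151 library, which held 3285258 counts against 4245486. In CPM the levels were 118 and 151 for Asic3, 115 and 149 for Scn9a and 116 and 149 for Kcna6. The 3 control and 3 shGpr151 columns of each gene overlapped in raw counts. These are not scaled for depth, so they do not show whether the columns overlap at equal depth. Of the 3 genes, Asic3 shares part of its span with the protein-coding gene Cdk5, whose log2 ratio was -0.22. The spans of Scn9a and Kcna6 overlap long non-coding RNA genes that are not in the count table.

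These calls were not stable. DESeq2 called 0 of the 49 genes, with 2 at an unadjusted p under 0.05, where edgeR had 6, and limma-voom called Asic3 and neither of the others. Leaving out 1 column ended the call of Scn9a in 3 of 6 cases (control columns 2 and 3, shGpr151 column 2), with ratios from 0.19 to 0.41. The call of Asic3 ended in 4 of 6 (control columns 1 and 2, shGpr151 columns 1 and 3), with ratios from 0.28 to 0.40. That of Kcna6 ended in 4 of 6 (control columns 1 and 3, shGpr151 columns 2 and 3), with ratios from 0.26 to 0.37.

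The RefSeq table of GRCm38.p6 has promoters for 42 of the 52 genes, in 64 entries. The 250 bases before the annotated start are printed for the 3 genes that were called higher together, at chr5:24413201-24413450 on the plus strand for Asic3, chr2:66634963-66635212 on the minus strand for Scn9a and chr6:126740675-126740924 on the minus strand for Kcna6. Capitals mark matches to the half-site of the cAMP response element (TGACG, both strands).
Asic3: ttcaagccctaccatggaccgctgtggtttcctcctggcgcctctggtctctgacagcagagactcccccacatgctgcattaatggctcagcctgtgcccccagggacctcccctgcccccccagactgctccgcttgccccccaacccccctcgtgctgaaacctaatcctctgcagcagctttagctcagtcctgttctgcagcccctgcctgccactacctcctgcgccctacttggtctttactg
Scn9a: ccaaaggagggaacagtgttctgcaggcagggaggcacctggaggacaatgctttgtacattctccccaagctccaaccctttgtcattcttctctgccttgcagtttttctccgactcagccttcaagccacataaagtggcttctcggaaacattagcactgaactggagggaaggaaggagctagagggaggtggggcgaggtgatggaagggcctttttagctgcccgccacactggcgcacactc
Kcna6: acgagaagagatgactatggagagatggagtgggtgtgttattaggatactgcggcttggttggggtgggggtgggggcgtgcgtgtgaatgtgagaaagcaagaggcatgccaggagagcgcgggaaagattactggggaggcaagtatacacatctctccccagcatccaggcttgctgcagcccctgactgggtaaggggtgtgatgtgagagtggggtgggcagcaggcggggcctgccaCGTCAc
The half-site was found in Kcna6, starting 6 bases before the start, and not in these windows of Asic3 and Scn9a. It was in 17.8% of all 32851 promoter entries of this length and in 18.8% of the 64 entries of channel genes. The AP-1 motif TGANTCA, the GC box GGGCGG and the TATA box TATAAA, each searched on both strands, matched in none of the 3 windows. The AP-1 motif, the GC box and the TATA box matched in 6.75%, 32.7% and 12.4% of all entries, in that order. Among channel entries the shares were 4.69%, 40.6% and 3.12%. The median GC content was 58.4% for channel entries and 52.4% for all, and GC content was not matched in these shares.

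The rest of the set differed little between the IP libraries. The median log2 ratio of the 52 genes was 0.087 (0.14 over the 21 with a mean of at least 20 counts per column), against 0.0050 over all genes, with 29 above 0 and 23 below, and single genes ran from -0.50 to 0.91. For 41 of the 52 the interval lay within a 2-fold difference in either direction, and 0 were past 2-fold with an interval off 0. Cacna2d1 had 0.14 (-0.030 to 0.30), Piezo2 0.22 (-0.017 to 0.46), Scn10a 0.14 (-0.23 to 0.51) and P2rx3 -0.16 (-0.51 to 0.18). Trpm3 and Clcn3 had intervals off 0, at 0.73 (0.022 to 1.45) and 0.25 (0.052 to 0.45), but were not called. Over 18 neuron markers, 2 were higher and 4 lower with a median of -0.031, and 4 of 7 fibroblast markers were higher with a median of 0.41. Of the other lists, Schwann cell markers had 1 higher and 1 lower, satellite glia markers 1 lower, macrophage markers 1 higher, and endothelial and mural markers no call. Their part in the channel values was not tested.

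**Figure D3:**
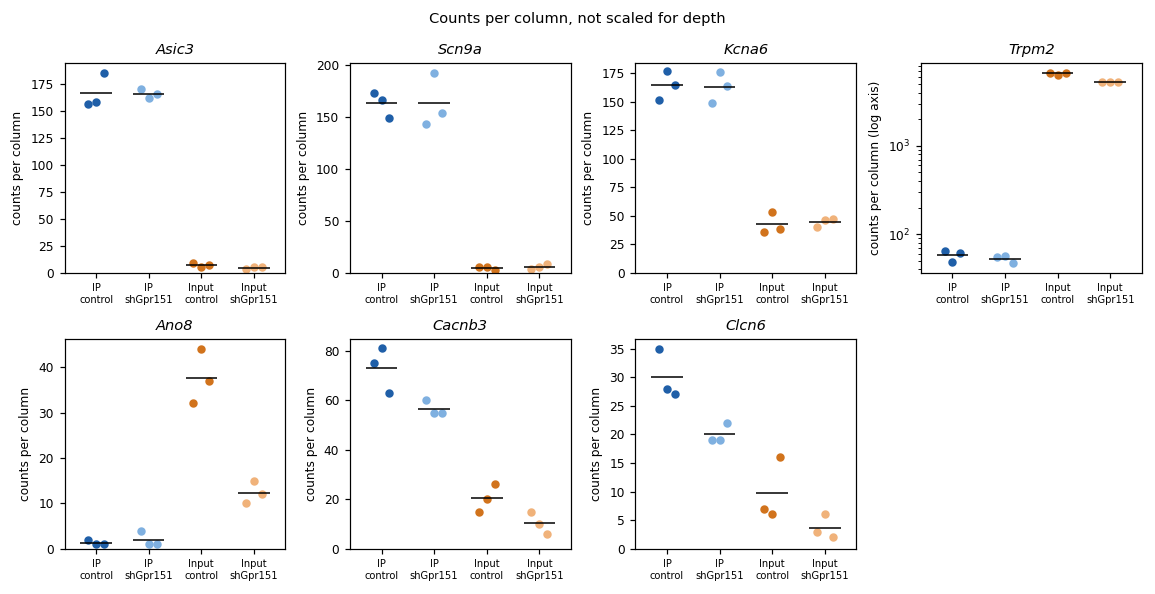
Counts in each of the 12 columns, not scaled for depth, are shown for the 7 genes that were called between the shGpr151 and control libraries, with black bars for group means and a log axis for Trpm2. Asic3, Scn9a and Kcna6 have nearly the same counts in both IP groups, and Trpm2 has 5324 to 6769 counts in the Input columns and 47 to 64 in the IP columns.

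The comparison of both Input libraries asks the same of the lysate. In Input shGpr151, Trpm2, Ano8, Cacnb3 and Clcn6 were called lower than in Input control, and 0 channel genes were called higher. These 4 of 49 tested genes make 8.16%, close to the 8.66% called lower among all tested genes. On this denominator the count does not set channels apart. Among all tested genes 17.0% were called in either direction and 8.31% higher. On the Input columns alone, 16 channel genes passed the filter on low counts and 3 were called, 0 of them higher. With a mean of at least 20 counts per column, 5 of 21 were called, 0 of them higher. Shares over all genes under these filters are not given here. By size, 5 of the 52 genes were more than 2-fold lower with an interval off 0, beside 1.99% of all genes, and 0 were more than 2-fold higher. Trpm2 had 19892 and 15999 summed counts, a log2 ratio of -0.29 (-0.32 to -0.26), and its 3 control columns lay above its 3 shGpr151 columns. Ano8 had 113 and 37 counts and a ratio of -1.59 (-2.17 to -1.04), again with no overlap of columns. Both kept their call when any 1 of the 6 Input columns was left out. Columns of a group differ by about the counting noise, so this is no check between separate libraries.

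Cacnb3 had 15, 20 and 26 counts in Input control and 15, 10 and 6 in Input shGpr151, a ratio of -0.95 (-1.63 to -0.31), and its columns met at 15. Clcn6, an exchanger of late endosomes, had 7, 6 and 16 counts and 3, 6 and 2, a ratio of -1.38 (-2.53 to -0.33), with columns that met at 6. DESeq2 ended the call of Clcn6, and leaving out 1 column ended each of these 2 calls in 3 of 6 cases. For Cacnb3 these were control column 3 and shGpr151 columns 2 and 3, with ratios from -1.32 to -0.68. For Clcn6 they were control column 3 and shGpr151 columns 1 and 3, with ratios from -1.94 to -0.80. In IP, Cacnb3 had -0.038 (-0.34 to 0.26) and Clcn6 -0.26 (-0.75 to 0.23).

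Over the 52 genes the median Input ratio was -0.23, against -0.064 over all genes, with 34 below 0 and 18 above. It was -0.083 over the 21 channel genes with a mean of at least 20 counts per column. Of the marker lists, neuron markers had 5 of 18 called lower and 2 higher with a median of -0.21, Schwann cell markers 3 of 9 lower and 0 higher with a median of -0.29, and satellite glia markers 2 of 6 lower and 1 higher with a median of -0.43. By contrast 3 of 6 endothelial and mural markers were higher, 0 were lower and the median was 0.31, macrophage markers had no call in 11 and a median of 0.24, and fibroblast markers had 1 of 7 lower and a median of -0.13. Their part in the channel values was not tested. Depth limits this comparison: the interval lay within a 2-fold difference for 13 of the 52 genes, where IP had 41. The median interval was 2.22 log2 units wide in Input and 1.04 in IP. Scn4b at -1.19 (-2.25 to -0.20), Cacna2d1 at -0.65 (-1.25 to -0.075) and Kcnd1 at -1.27 (-2.57 to -0.092) had intervals off 0 and no call. For Scn9a, at 0.41 (-0.72 to 1.57), and Piezo2, at 0.70 (-0.53 to 2.00), the interval holds both no difference and a 2-fold increase, so a change of that size was not detectable at this depth.

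**Figure D4:**
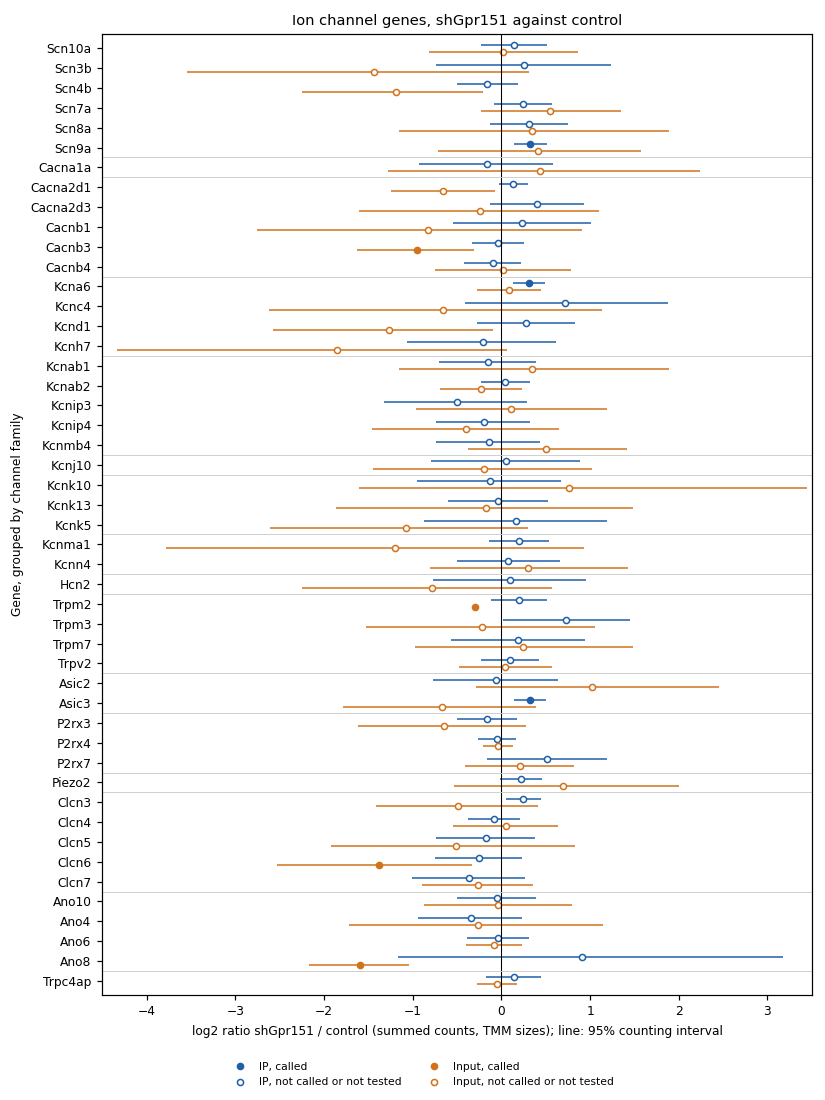
The log2 ratio of shGpr151 over control is drawn for ion channel genes in IP (blue) and in Input (orange), with lines for the 95% counting interval and filled points for called genes. Most IP points lie close to 0 with short lines, and most Input lines are wider. For Ano8 and Trpm2 the Input line is the shorter one. The filled points are Asic3, Scn9a and Kcna6 in IP and Trpm2, Ano8, Cacnb3 and Clcn6 in Input.

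The difference of the IP/Input ratios, shGpr151 minus control, was called for 2 channel genes, both higher, and Trpm2 was among them. These 2 of 49 make 4.08%. Among all tested genes 14.2% were called, 5.41% higher and 8.82% lower. For Trpm2 the difference was 0.49 (0.18 to 0.80). Leaving out 1 column ended the call of Trpm2 in 9 of 12 cases (all 6 IP columns, Input control columns 1 and 3 and Input shGpr151 column 2), with values from 0.38 to 0.57. RLE size factors and limma-voom ended it too. Over the 52 genes the median difference was 0.26, and over the 21 with a mean of at least 20 counts per column 0.225. Over all genes it was 0.059.

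Genes that work with channels were taken as a list of 85 pumps, anchors, auxiliary proteins and other channels, of which 56 were in the table and 52 tested. In IP against Input in control, 28 were called higher (53.8%, against 32.5% of all tested genes) and 8 lower (15.4%, against 32.8%). With shGpr151 these were 29 (55.8%, against 33.6%) and 6 (11.5%, against 33.0%). Both medians were above 0, at 0.78 and 0.85. Atp1b1, the beta1 subunit of the sodium pump, had 3.30 (3.02 to 3.61) in control, and the calmodulin gene Calm2 had 1.01 (0.93 to 1.10). Akap5, which anchors kinases at channels, was far lower in IP, at -4.41 (-4.54 to -4.29).

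Between the IP libraries, 7 of the 52 were called higher (13.5%, against 3.72% of all tested genes) and 1 lower (1.92%, against 4.97%). Atp1b1 had 0.30 (0.23 to 0.38), Ank3, the ankyrin that anchors sodium channels at the initial segment, 0.24 (0.10 to 0.38) and Tmem63c 0.53 (0.29 to 0.76). Akap5, Akap12 and the volume-regulated channel gene Lrrc8b were also called higher, at 0.24 to 0.78. Between the Input libraries, 2 were called higher (3.85%, against 8.31%) and 4 lower (7.69%, against 8.66%), which is near or below the share over all genes. Fgf12, which binds sodium channels inside the cell, had 1.24 (0.33 to 2.22) on 15 and 35 counts, and Calm2 had 0.31 (0.20 to 0.41). Atp1b1 had -0.77 (-1.26 to -0.28), Snap25 -0.75 (-1.20 to -0.30), Atp2b4 -0.56 (-0.91 to -0.20) and Akap5 -0.47 (-0.54 to -0.41). Atp1b1 and Akap5 were thus called higher in IP and lower in Input.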

How the data were processed

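RNA of adult mouse DRG neurons was sequenced from nanopore cDNA-PCR barcoding libraries, per the labels' protocols. Of software, minimap2 and Salmon are listed, without a version, and of genomes GRCm39 and mm39, per the submitters' processing notes. The authors deposited whole-number counts per Ensembl gene ID, not normalized, and the lowest is 1. Strand use and the handling of paralogs or overlapping genes at counting were not stated, which leaves such genes uncertain. A symbol was found for 9061 IDs.

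The 12 columns entered 1 fit with edgeR 4.0.16 (R 4.3.3): TMM, filterByExpr at a minimum count of 10, 1 mean per group, glmQLFit, glmQLFTest and Benjamini-Hochberg adjustment at 0.05 over 8312 genes. The common biological coefficient of variation (BCV) was 1.22%, so calls compare libraries and no p-value of a gene is printed. Ratios carry exact binomial (Clopper-Pearson) 95% intervals, or Wald intervals for the difference of ratios. Reads were PCR copies without identifiers and so not independent, which the intervals do not cover.

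Genes named are those called in a shGpr151 comparison or in the difference, the 6 called with the largest ratio in each direction of IP against Input, the 2 with most counts per family, and Scn9a, Asic3, Piezo2 and Cacnb3. Some genes under this rule are not reported here. Other names were chosen after their values were seen. From the list of genes that work with channels, names were taken from the 3 with most counts and the called ones. Some of these are not reported here. Members and lists were chosen with earlier results of these data known. Marker lists are described by counts of calls and medians. Alternatives were RLE size factors, total counts, other filters, DESeq2 1.42.0, limma-voom (limma 3.58.1), the compared groups alone, a replicate block, columns left out, 1 library per group and a 2-fold rule. The fit was tested on simulated counts. Figures used matplotlib 3.10.9.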

Additional observations from a re-analysis of the deposited data

Results flagged for a closer look

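Trpm2 stood out because its IP/Input ratio differed between the shGpr151 and control libraries by a test of the difference itself. The difference was 0.49 (0.18 to 0.80) on the log2 scale, from -8.43 in control to -7.94 with shGpr151. It compares 4 libraries without replicates. The call ended in 9 of 12 cases with 1 column left out, each of the 6 IP columns among them, and also with RLE size factors and with limma-voom. Which feature in the span of Trpm2 the Input counts came from was not tested.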

How the results depend on the processing

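Of the 49 tested channel genes, edgeR called 3 between the IP libraries, 4 between the Input libraries, 27 and 29 for IP against Input in control and with shGpr151, and 2 for the difference of these ratios. Leaving out 1 column gave 1 to 3, 3 to 6, 22 to 28, 25 to 30 and 0 to 3 genes in that order. Between the IP libraries limma-voom called 1, DESeq2 0, the 2-fold rule 0, and 1 library per group with an assumed BCV of 10% or 20% 0, with 0 at an unadjusted p under 0.05 for both BCV values. Between the Input libraries an assumed BCV of 10% left 1 gene, Ano8, and one of 20% left 0, with 3 at an unadjusted p under 0.05. For IP against Input total counts gave 46 and 47 genes, and a BCV of 20% gave 16 and 18. With a mean of at least 20 counts per column, 21 channel genes were left to test, and 18 and 19 of them were called. That mean covers IP and Input columns, so a gene can pass it through high IP counts. These 18 and 19 calls are therefore no check on enrichment, and the share over all genes under this filter is not given here. For the difference, RLE size factors and DESeq2 each called 1, the 2-fold rule took 5, and assumed BCVs of 10% and 20% called 0, with 4 and 1 at an unadjusted p under 0.05. On total counts the IP/Input direction reversed for Ano6 (0.475 in control, 0.541 with shGpr151), P2rx7 (0.329 and 0.655) and Clcn7 (0.793 and 0.719), by the shift between the scales.

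The replicate block called 3, 4, 27, 29 and 2 genes, the same counts as without it. Deviations of same-numbered columns correlated at -0.0104 to 0.0197 over 18 pairs, and 3 of 12 columns were closest to their own number. Because columns of a group differ by about the counting noise, these values cannot show whether same-numbered columns share animals or a batch. The exact binomial test and the fit on compared groups alone give no value for the difference of ratios. Input depth limits the precision, with 25 of 52 genes under 20 summed counts in control and 33 with shGpr151.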
